A study of Mus musculus with 16 samples.

Results

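The genes described are 43 mouse genes of DNA replication and nucleotide synthesis, a set listed by symbol and found in full among the 56748 rows of the count table. They comprise 5 genes of deoxynucleotide (dNTP) supply, 14 of origin licensing and the replicative helicase, 7 of primase and the DNA polymerases, 10 of the sliding clamp, its loader, single-strand binding and Okazaki fragments, 3 of S-phase entry and 4 of chromatin assembly and histone supply. They were measured by RNA-Seq in mouse Sertoli-like TM4 cells, an established line, 24 h after transfection with 2.5 µg of plasmid per well. The plasmid was the empty vector pcDNA3.1-HA (EV, 6 samples), pcDgdf6Y, which expresses the killifish growth factor gene *gdf6Y* (*gdf6Y*, 5 samples), or pcDgdf6Ydel9, which expresses *gdf6Y* with a short in-frame deletion in its prodomain (del9, 5 samples). All 3 groups thus received plasmid DNA and a lipid transfection reagent, and no untransfected cells were compared. The share of cells that took up plasmid was not measured here, and the killifish transgene has no row of its own in the mouse table, where *Gdf6* had 0 counts in all 16 samples. The labels give replicate numbers but do not say whether replicates were separate cultures. The p-values thus rest on the spread between these samples, which may be technical and which the test largely shared among genes of similar count.

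Cells copy their DNA once per cycle in S phase. Origins are licensed by loading the MCM helicase in G1, cyclin E and the E2F factors drive entry into S phase, and primase, 3 polymerases, the clamp PCNA and its loader then copy both strands. Ribonucleotide reductase and thymidylate enzymes supply the building blocks, and transcripts of most of these genes rise when cells pass from G1 into S phase, so their levels in a bulk sample follow both the share of cycling cells and the amount of RNA per cell, which cannot be told apart here.

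Between 21486850 and 26444903 reads per sample were counted on genes, and the 43 genes had 420.4 counts or more on average, so all of them passed the filter on low counts. Of the markers that define Sertoli cells, *Gata4* stood at 822 to 840.4 normalized counts in the EV samples and *Sox9* at 36.3 to 50.8, while *Wt1* was at 0 in all samples. The summed level of 10 Sertoli markers was 1682 to 1770 with EV, 1497 to 1619 with *gdf6Y* and 1570 to 1734 with del9, where del9 overlapped with EV. Most of that sum came from *Gata4* and *Kitl*, with EV means of 830.9 and 706.6. *Amh*, *Nr5a1*, *Fshr* and *Cldn11* had at most 13 counts in any sample. Of the 10, *Gata4* alone was called with *gdf6Y* against EV, where it fell (log2 fold change -0.20, adjusted p = 9.98e-05), and 0 were called with del9. *Kitl* was not called (-0.042 with *gdf6Y*). Among genes counted at least as highly as the least counted of the 43, 10.1% were called lower with *gdf6Y* and 10.5% with del9. The collagen gene *Col1a1*, a marker of mesenchymal cells, stood at 50910 to 54760 with EV. Of 6 peritubular and mesenchymal markers, with sums of 125500 to 134000 with EV, 121500 to 135200 with *gdf6Y* and 120200 to 128200 with del9, *Pdgfra* fell with *gdf6Y* and with del9 (-0.13 in each) and *Pdgfrb* with del9 (-0.25). The part of these markers in the results was not tested. For normalized counts, each library was scaled by its TMM-adjusted total to the average such total over the 16 samples. All tests are edgeR’s quasi-likelihood test between 2 groups with Benjamini-Hochberg adjustment over all genes tested, and a gene is called where the adjusted p-value is below 0.05.

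Many replication genes carry binding letters for E2F factors close to their start sites, and the 160 bases upstream of 5 of the genes are shown because they span this range, from 3 matches to none. The letters searched were TTTGGCGC, TTTGCCGC, TTTCGCGC and TTTCCCGC on both strands, within 250 bases before and 50 bases after the start of the canonical transcript in GENCODE (GRCm39). Each stretch is written 5′ to 3′ on the strand of the gene, and capitals mark the matches, which overlap in *Mcm5* and in *Mcm6*.
Mcm6, chr1:128287453-128287612, minus strand: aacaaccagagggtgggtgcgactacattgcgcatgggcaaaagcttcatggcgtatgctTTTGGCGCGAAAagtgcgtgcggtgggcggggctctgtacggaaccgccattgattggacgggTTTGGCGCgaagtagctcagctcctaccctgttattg
Mcm5, chr8:75835980-75836139, plus strand: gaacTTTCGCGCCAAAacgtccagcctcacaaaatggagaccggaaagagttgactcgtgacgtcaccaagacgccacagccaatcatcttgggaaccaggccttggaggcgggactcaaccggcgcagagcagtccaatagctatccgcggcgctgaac
Mcm4, chr16:15455265-15455424, minus strand: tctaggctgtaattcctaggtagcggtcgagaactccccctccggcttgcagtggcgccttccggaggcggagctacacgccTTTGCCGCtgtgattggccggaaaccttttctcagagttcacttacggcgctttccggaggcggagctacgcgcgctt
Pola1, chrX:92675814-92675973, minus strand: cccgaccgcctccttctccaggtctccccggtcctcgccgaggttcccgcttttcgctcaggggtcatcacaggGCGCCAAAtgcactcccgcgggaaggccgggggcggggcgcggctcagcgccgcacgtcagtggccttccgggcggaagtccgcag
Rrm2, chr12:24757651-24757810, plus strand: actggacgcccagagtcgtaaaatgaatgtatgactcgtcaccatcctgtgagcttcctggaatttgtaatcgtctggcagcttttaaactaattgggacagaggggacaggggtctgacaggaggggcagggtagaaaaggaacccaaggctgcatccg

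In all, 11 of the 43 genes (25.6%) held such a match in this window, against 2.82% of the 21770 promoters of protein-coding genes and 4.41% of the 7846 promoters of genes counted at least as highly as the least counted of the 43. The other genes with a match were *Cdc6*, *Cdt1*, *Mcm3*, *Gins1*, *Pole*, *Rfc3* and *E2f1*, where it lay after the start site. The letters CCAAT were found in 53.5% of the 43 promoters and 39.9% of the protein-coding ones, and the letters TTTGAA in 6.98% and 17.1%. A match is a description of the sequence and not a measured site. The median log2 fold change between del9 and EV was 0.092 in the genes with an E2F match, of which 7 were called higher, and 0.10 in those without, of which 20 were called higher.

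To learn how the genes differed between the cells with the *gdf6Y* plasmid and the controls, each was compared in 3 pairs of groups. With del9, 27 of the 43 genes were called higher than with EV, 0 lower and 16 were not called. The median difference was small, a log2 fold change of 0.10 (7.3%), and 42 of the 43 values were above 0. Over all genes tested in this comparison 4.82% were called higher and 4.43% lower, and among the 7922 genes counted at least as highly as *Gins3*, the least counted of the 43, 14.7% were called higher and 10.5% lower. With counts scaled to the library totals the calls over all genes split into 863 higher and 1492 lower, from 1263 and 1162, while 23 of the 43 were called higher and 0 lower. With *gdf6Y*, 7 of the 43 genes were called higher than with EV (*Rrm2*, *Dut*, *Cdc6*, *Gins2*, *Ccne1*, *Ccne2* and *E2f1*), *Pole* was called lower and 35 were not called, with a median log2 fold change of 0.060 (4.28%) and 39 values above 0. The shares called higher and lower in that comparison were 1.7% and 3.38% over all genes tested and 5.14% and 10.1% among the genes of similar count. Both comparisons use the same 6 EV samples. In the direct comparison of *gdf6Y* with del9, *Rrm2* was called higher, 0 genes were called lower and 42 were not called, against 0.599% higher and 0.41% lower over all genes and 1.01% and 1.21% among genes of similar count. There 39 of the 43 values were below 0 and the median log2 fold change was -0.044. The median of the genes of similar count was -0.0091 there, 0.014 with del9 against EV and 0.0036 with *gdf6Y* against EV. Of the 43 genes, 7 had an unadjusted p-value below 0.05 between *gdf6Y* and del9, and with DESeq2 the one call was again *Rrm2*. The shares of other genes for the direction count and the unadjusted p-value are not given here.

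**Figure D1:**
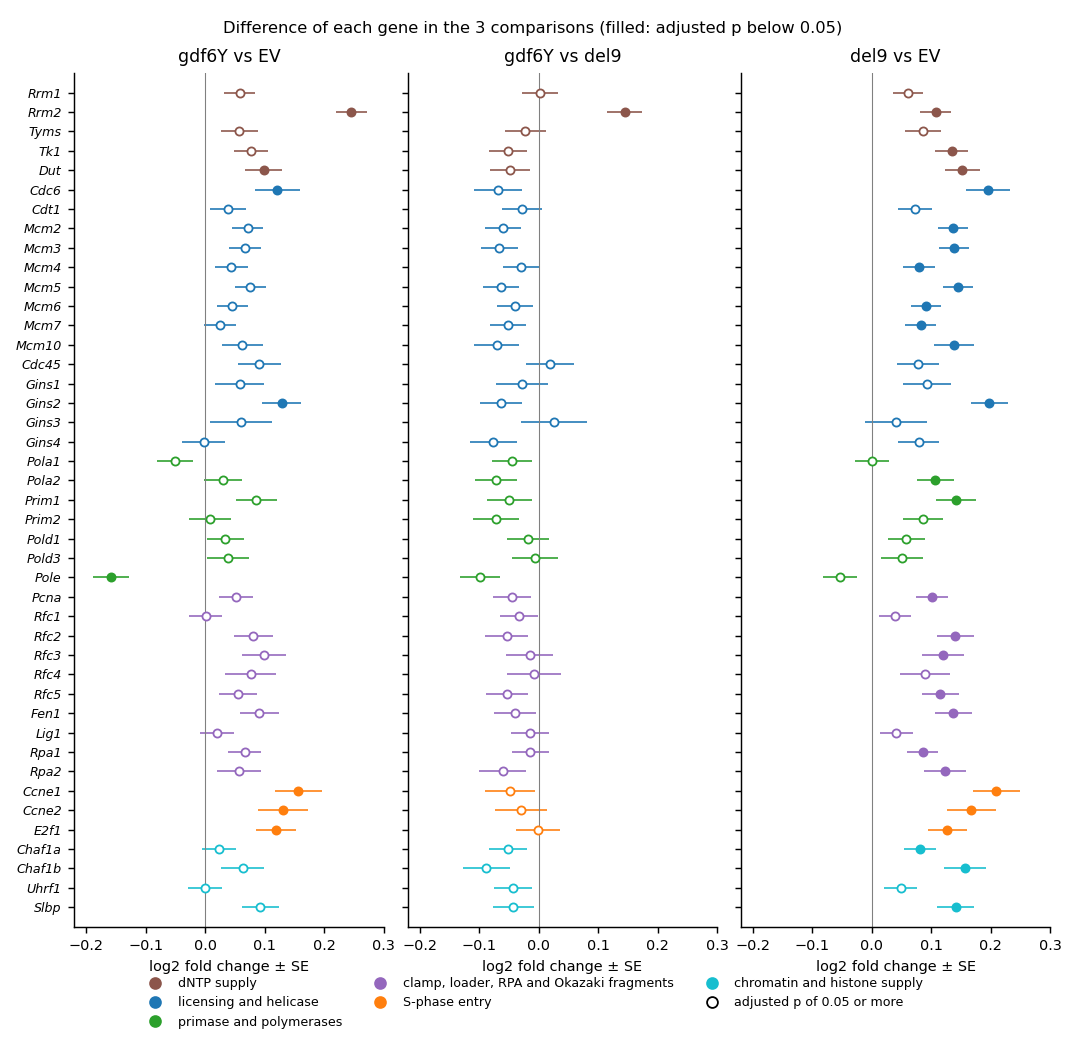
Difference of each of the 43 genes in the 3 comparisons, as log2 fold change (x axis) with its SE as the bar; colours mark roles and filled points an adjusted p-value below 0.05. The del9 against EV panel holds 27 filled points, all above 0, and the *gdf6Y* against del9 panel holds 1, *Rrm2*.

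The calls against EV leaned on single libraries to a different extent. In each of the 11 fits that left out 1 library, *Rrm2*, *Gins2*, *Ccne1* and *Pole* remained called in *gdf6Y* against EV. Of the other calls *Ccne2* was lost without EV replicate 1, 3, 4 or 6 or *gdf6Y* replicate 2, 3 or 5 (7 fits), *Cdc6* in the same fits except that without EV replicate 1 (6 fits), *Dut* without EV replicate 1, 3 or 4 or *gdf6Y* replicate 3 or 5 (5 fits) and *E2f1* without *gdf6Y* replicate 3. As a result the number of called genes was 16 without *gdf6Y* replicate 1, 4 without *gdf6Y* replicate 3, and 5 without *gdf6Y* replicate 5 or EV replicate 4. The genes gained without *gdf6Y* replicate 1 were *Mcm2*, *Mcm3*, *Mcm5*, *Fen1*, *Prim1*, *Rfc3*, *Rpa1* and *Slbp*. In del9 against EV, 19 of the 27 calls were kept in all 11 fits, *Chaf1a* was lost in 9 of them, in all but those without EV replicate 2 or del9 replicate 4, and *Mcm4* in 7. *Rfc3* was lost without EV replicate 1 or 3 or del9 replicate 3 or 5, and *Rpa1* without EV replicate 4 or 6 or del9 replicate 3 or 5. *Pcna* was lost without EV replicate 1, *Pola2* without del9 replicate 5, and *Mcm7* and *Rpa2* without EV replicate 4 or del9 replicate 5, and 20 genes were called without del9 replicate 5. *Tyms* was gained without EV replicate 2 or 5 or del9 replicate 1 or 2. The call of *Rrm2* in *gdf6Y* against del9 was kept in all 10 such fits.

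Complete separation of the samples was rare. Only *Rrm2* had every *gdf6Y* sample above every EV sample, a pattern shown by 3.64% of the 7922 genes of similar count. In del9 against EV this held for *Dut*, *Mcm7*, *Rfc2*, *Chaf1a* and *Slbp*, 5 genes, where 6.68% of the genes of similar count showed it. In *gdf6Y* against del9, *Mcm7* and *Chaf1a* had every *gdf6Y* sample below every del9 sample (1.84% of the genes of similar count).

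As a score, the mean log2 CPM over the 43 genes (prior count 2) had a mean ± SD of 6.59 ± 0.041 in the 6 EV samples, 6.64 ± 0.037 in the 5 *gdf6Y* samples and 6.69 ± 0.046 in the 5 del9 samples. EV samples ranged from 6.55 to 6.64, *gdf6Y* samples from 6.59 to 6.69 and del9 samples from 6.63 to 6.74, so the groups overlapped. No test is given for the score, since the genes were chosen with earlier results known. Within each group the samples with replicate numbers 2 and 5 together held the highest value for most of the genes. Replicate 5 had the highest value of 24 genes with EV, of 7 with *gdf6Y* and of 23 with del9, and replicate 2 that of 14, 26 and 9 genes. Taken by number, the score of *gdf6Y* minus that of EV was 0.037, 0.054, 0.097, 0.071 and 0.022 in replicates 1 to 5, and that of del9 minus EV was 0.072, 0.0725, 0.16, 0.091 and 0.0925. The score of *gdf6Y* was below that of del9 at each number, by 0.035, 0.019, 0.061, 0.020 and 0.071. At all 5 numbers, 33 of the 43 genes (76.7%) were higher and 0 lower with del9 than with EV, where 21.9% of the 7922 genes of similar count were higher and 15.8% lower. With *gdf6Y*, 19 (44.2%) were higher than with EV and 2 (4.65%) lower (*Pola1* and *Pole*), against 15.8% and 16.9% of the genes of similar count. Between *gdf6Y* and del9, 12 (27.9%) were lower and 1 (2.33%) was higher with *gdf6Y*, against 12.4% and 5.19% of the genes of similar count.

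**Figure D2:**
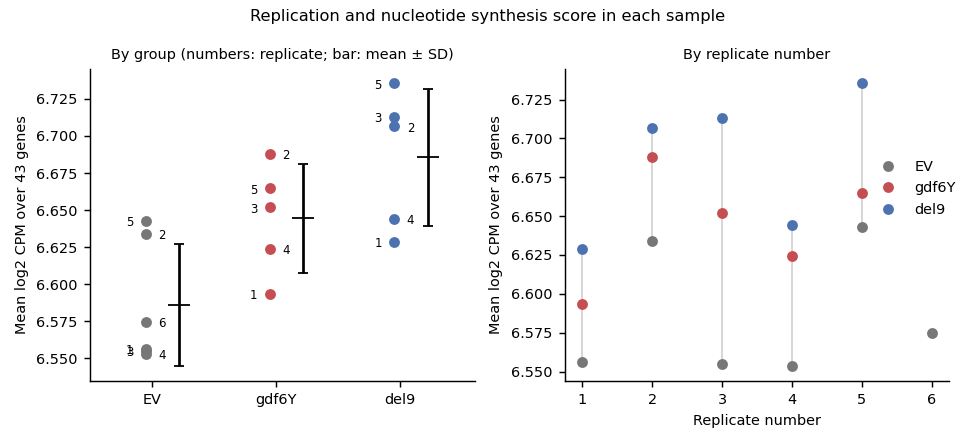
Mean log2 CPM over the 43 genes in each of the 16 samples, by group with the mean ± SD (left, with replicate numbers) and by replicate number (right, where grey lines join samples of the same number). EV is lowest and del9 highest at each of the 5 shared numbers.

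Among the genes of dNTP supply the clearest difference was that of *Rrm2*, the small subunit of ribonucleotide reductase, whose level varies over the cell cycle (ENSMUSG00000020649, chr12:24757811-24764145, plus strand in GRCm39). Its normalized counts were 8085 to 8909.8 (median 8129) with EV, 9404, 10401, 9820.4, 9836 and 10037 in the *gdf6Y* samples and 8380.1, 9480.0, 9073, 8716 and 9288 in the del9 samples. The lowest *gdf6Y* sample lay above the highest EV sample, whereas *gdf6Y* and del9 overlapped, since the highest del9 sample passed the lowest *gdf6Y* sample. *Rrm2* rose by 0.25 ± 0.026 (log2 fold change ± SE, adjusted p = 4.9e-17) with *gdf6Y* against EV, by 0.11 ± 0.025 (adjusted p = 0.000821) with del9 against EV and by 0.14 ± 0.030 (adjusted p = 0.000334) with *gdf6Y* against del9. By number the *gdf6Y* sample exceeded the del9 sample in all 5 cases, by 0.11 to 0.17 on the log2 scale. The size of the adjusted p-value depended on the fit. For *gdf6Y* against EV it was 1.89e-10 with DESeq2 and 0.000192 with edgeR’s filterByExpr in place of the filter of 1 count. With filterByExpr that of *gdf6Y* against del9 was 0.0906, and with a correction for gene length that of del9 against EV was 0.0567.

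*Rrm1* encodes the large subunit, with *gdf6Y* at 0.058 ± 0.026 relative to EV and 0.0026 ± 0.030 relative to del9 on the log2 scale, and it was called in neither comparison. The ratio of *Rrm2* to *Rrm1* within a library does not depend on library size. It was 0.977 to 1.01 over the EV samples, 1.1002, 1.15, 1.13, 1.13 and 1.13 in the *gdf6Y* samples and 0.979, 1.055, 1.02, 1.01 and 1.04 in the del9 samples, so that the *gdf6Y* samples stood apart from both other groups in this ratio, which was looked at after the values were seen. The ratio is not free of gene length, since *Rrm2* has 3320 exonic bases and *Rrm1* 11762. With a replicate block and a length correction, *gdf6Y* against EV stood at 0.20 for *Rrm2* and 0.094 for *Rrm1*, and both were called. Against del9 these values were 0.15 and 0.012, and only *Rrm2* was called. The part of length in the ratio was not tested.

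*Dut*, the dUTPase that keeps uracil out of DNA, had normalized counts of 2492 to 2701 (median 2565) with EV, 2619, 2749, 2775, 2703 and 2956 with *gdf6Y* and 2768, 2930.4, 2863, 2808 and 2945 with del9. All del9 samples lay above all EV samples. *Dut* rose by 0.15 ± 0.029 with del9 (adjusted p = 1.68e-05) and by 0.098 ± 0.030 with *gdf6Y* (adjusted p = 0.0313). *Tk1*, the thymidine kinase of the salvage pathway, stood at 3696 to 4106 (median 3901) with EV, 4082, 4129.7, 4389, 3906 and 4062 with *gdf6Y* and 4154, 4106, 4599.7, 4157 and 4378 with del9, and was called with del9 (log2 fold change 0.13 ± 0.028, adjusted p = 6.19e-05). The value of *Tk1* with *gdf6Y* was 0.077 ± 0.029, which did not pass the test. *Tyms*, thymidylate synthase, was not called, with 0.057 ± 0.031 for *gdf6Y* and 0.085 ± 0.030 for del9 against EV.

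The S-phase entry genes were called higher in both groups against EV, all 3 of them each time. *Ccne1*, a cyclin E that activates CDK2 at the G1/S boundary (ENSMUSG00000002068, chr7:37797404-37808264, minus strand), had normalized counts of 789.9 to 930.0 (median 839) with EV, 899, 996, 978, 907 and 958 with *gdf6Y* and 891, 1024, 1038, 943 and 1017 with del9. EV replicate 5 was the one EV sample that reached into the range of the other groups. Its log2 fold change was 0.16 ± 0.040 with *gdf6Y* (adjusted p = 0.0034) and 0.21 ± 0.039 with del9 (adjusted p = 4.85e-06), the highest value of the 43 genes in the latter comparison. *Ccne2*, the second cyclin E, stood at 659 to 836 (median 733) with EV, 732, 845, 803, 785 and 911 with *gdf6Y* and 726, 848, 836, 850.0 and 911 with del9. The EV range reached into that of both other groups, and the rises were 0.13 ± 0.042 (adjusted p = 0.0385) and 0.17 ± 0.041 (adjusted p = 0.0011). *E2f1*, a transcription factor that turns on many replication genes, had counts of 1485 to 1629.9 (median 1522) with EV, 1701, 1569.7, 1718, 1703 and 1656 with *gdf6Y* and 1734, 1660.2, 1687, 1614 and 1695 with del9. One EV sample, replicate 3, overlapped with the others. *E2f1* rose by 0.12 ± 0.034 with *gdf6Y* (adjusted p = 0.0128) and by 0.13 ± 0.033 with del9 (adjusted p = 0.00289), and between *gdf6Y* and del9 it differed by -0.0017 ± 0.037. The call of *Ccne2* with *gdf6Y* was lost in 12 of 21 alternative fits, among them DESeq2 (adjusted p = 0.146) and a filter on low counts by filterByExpr (0.163). With a correction for gene length *E2f1* was not called with *gdf6Y* (adjusted p = 0.101) or with del9 (0.0612).

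**Figure D3:**
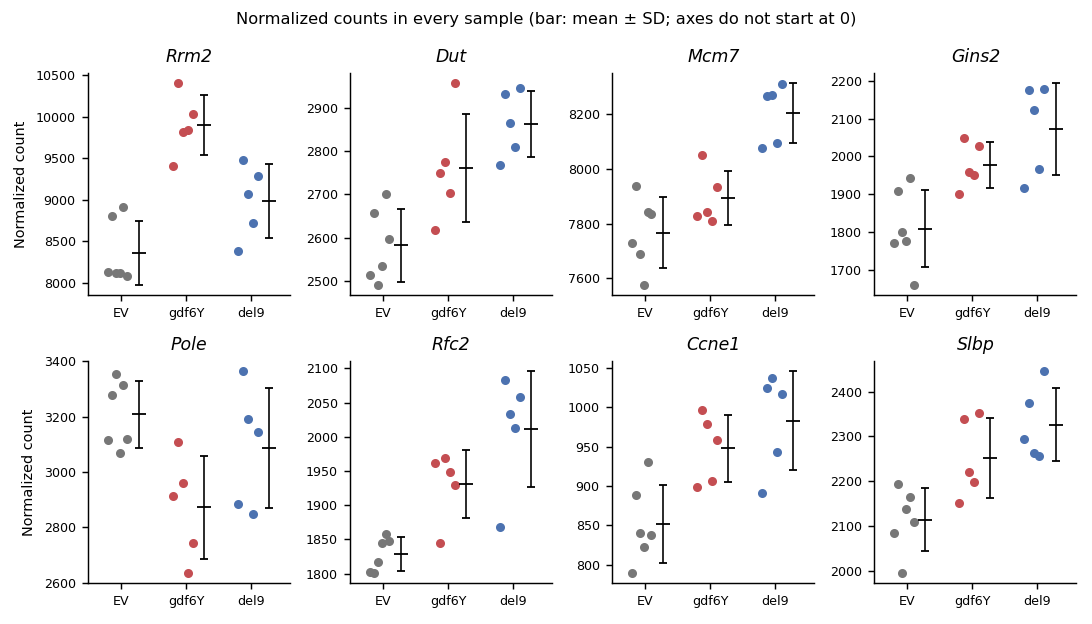
Normalized counts of 8 genes in every sample of EV, *gdf6Y* and del9, with the group mean ± SD as the bar. *Rrm2* is highest in the *gdf6Y* samples (9404 to 10401), *Pole* is lowest there, and *Mcm7*, *Dut*, *Rfc2* and *Slbp* have every del9 sample above every EV sample.

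Of the 14 licensing and helicase genes, 9 were called higher with del9 and 2 with *gdf6Y*, and 0 were called lower. Between *gdf6Y* and del9, 0 of the 14 were called. The 6 subunits of the MCM2-7 ring, which unwinds DNA ahead of the fork, were all called with del9. With *gdf6Y* none of them passed the test in the fit reported here, and *Mcm2*, *Mcm3* and *Mcm5* did in other fits. Their log2 fold changes with del9 were 0.14 ± 0.026 for *Mcm2*, 0.14 ± 0.026 for *Mcm3*, 0.079 ± 0.026 for *Mcm4*, 0.14 ± 0.026 for *Mcm5*, 0.091 ± 0.025 for *Mcm6* and 0.082 ± 0.026 for *Mcm7*. With *gdf6Y* they ran from 0.025 (*Mcm7*) to 0.076 (*Mcm5*), and the direct differences between *gdf6Y* and del9 ran from -0.066 to -0.029, all below 0 and none called.

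*Mcm5* had normalized counts of 7355 to 8019.7 (median 7588) with EV, 7809, 8322, 8128, 7736 and 8297 with *gdf6Y* and 7967, 8639, 8706, 7943 and 8981 with del9, and the smallest adjusted p-value of the 6 with del9 (1.62e-06). Its EV and del9 ranges overlapped through EV replicates 2 and 5. *Mcm7* stood at 7576 to 7936 (median 7782) with EV, 7829, 8049.5, 7844, 7808 and 7934 with *gdf6Y* and 8078, 8265, 8270.4, 8096 and 8312 with del9. Here all del9 samples lay above all samples of both other groups. Exons of *Mcm7* overlap the microRNA genes *Mir25* and *Mir93* on the same strand, and reads in such an overlap were discarded in counting. For *Mcm2* the counts were 7563 to 8438 (median 7710.0) with EV, 7938, 8656, 8281, 8107 and 8356 with *gdf6Y* and 8182, 8887, 8768, 8222 and 9172 with del9, and the EV range reached into that of del9. *Mcm3* stood at 6462 to 7049 (median 6574) with EV, 6621, 7289.8, 6997, 6713 and 7112 with *gdf6Y* and 7009, 7547, 7337, 6986 and 7601 with del9. Its EV range overlapped with del9 through replicate 5. *Mcm4* stood at 5622 to 6064 (median 5659) with EV, 5708, 6089.6, 6048, 5856 and 5938 with *gdf6Y* and 5959.6, 6313, 6068, 5807 and 6203 with del9. *Mcm6* stood at 8645 to 9318 (median 8846) with EV, 8975, 9731, 9110.3, 9113 and 9130.3 with *gdf6Y* and 9274, 9729, 9499, 9347 and 9664 with del9. For both, EV replicates 2 and 5 lay within the range of del9.

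The licensing factor *Cdc6*, which loads the MCM ring together with *Cdt1*, had normalized counts of 909 to 1097 (median 988) with EV, 1007, 1186, 1085, 1002 and 1144 with *gdf6Y* and 1042, 1135, 1162, 1098 and 1262 with del9. Its samples were spread widely within each group, with a coefficient of variation of 6.94% in EV. *Cdc6* rose by 0.20 ± 0.037 with del9 (adjusted p = 8.46e-06) and by 0.12 ± 0.038 with *gdf6Y* (adjusted p = 0.0341). *Cdt1* was called in neither, at 0.073 ± 0.029 and 0.038 ± 0.030. *Gins2*, a subunit of the GINS complex that joins the ring to form the active helicase, stood at 1661 to 1942 (median 1787) with EV, 1899, 2047, 1958, 1951 and 2028 with *gdf6Y* and 1918, 2175, 2123, 1967 and 2177 with del9, and rose by 0.20 ± 0.032 (adjusted p = 5.65e-08) and 0.13 ± 0.033 (adjusted p = 0.00333). EV replicates 2 and 5 reached into the *gdf6Y* range, and replicate 5 into that of del9. The other GINS subunits were called in no comparison, with values against EV of 0.092 (del9) and 0.058 (*gdf6Y*) for *Gins1*, 0.040 and 0.060 for *Gins3*, and 0.079 and -0.003 for *Gins4*. *Mcm10*, a firing factor, had counts of 1313 to 1542 (median 1368) with EV, 1394, 1474, 1502, 1432 and 1497 with *gdf6Y* and 1405, 1585, 1584, 1459.7 and 1657 with del9 and was called with del9 (log2 fold change 0.14 ± 0.034, adjusted p = 0.00112). *Cdc45*, the third helicase component, was called in neither (0.077 with del9, 0.091 with *gdf6Y*).

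The 7 primase and polymerase genes held the one gene that fell. *Pole*, the catalytic subunit of the leading-strand polymerase epsilon (ENSMUSG00000007080, chr5:110434172-110486287, plus strand), had normalized counts of 3068 to 3355 (median 3197) with EV, 2912, 3109.9, 2959, 2636 and 2743 with *gdf6Y* and 2885, 3364, 3190.4, 2848 and 3144 with del9. The *gdf6Y* samples were the lowest as a group, with only replicate 2 inside the EV range, while the del9 samples spread on both sides of it. *Pole* changed by -0.16 ± 0.030 (log2 fold change ± SE, adjusted p = 1.74e-05) with *gdf6Y* against EV. The values of -0.053 ± 0.029 with del9 against EV and -0.099 ± 0.034 between *gdf6Y* and del9 (adjusted p = 0.303 and 0.162) did not pass the test. The latter passed it without *gdf6Y* replicate 2, del9 replicate 1 or del9 replicate 4, and in a fit with a replicate block. *Pole* was called in del9 against EV without del9 replicate 2. *Prim1*, the catalytic primase subunit, had counts of 1413 to 1572 (median 1513) with EV, 1465, 1763, 1556, 1543 and 1649 with *gdf6Y* and 1552, 1601, 1723, 1654 and 1744 with del9, and rose with del9 by 0.14 ± 0.033 (adjusted p = 0.000634). *Pola2*, the accessory subunit of the polymerase that extends primers, stood at 1878 to 2072 (median 1926) with EV, 1901, 2039.7, 1998, 1979 and 1986 with *gdf6Y* and 2087, 2132, 2133, 1937 and 2152 with del9 and rose with del9 by 0.11 ± 0.031 (adjusted p = 0.0107). Its catalytic partner *Pola1* was not called, at 0.0001 ± 0.029 with del9 and -0.051 ± 0.030 with *gdf6Y*. *Prim2*, the large primase subunit (0.086 with del9 and 0.0077 with *gdf6Y*), *Pold1* (0.058 and 0.034) and *Pold3* (0.051 and 0.038), the last a pair of subunits of the lagging-strand polymerase delta, were called in no comparison.

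Of the 10 genes of the clamp, its loader, single-strand binding and Okazaki fragment maturation, 7 were called higher with del9 and 0 with *gdf6Y*. The shares among genes of similar count were 14.7% and 5.14%. With *gdf6Y* against EV the 10 values ran from 0.0007 to 0.0985, with a median of 0.061. Between *gdf6Y* and del9, 0 of the 10 were called. In other fits a replicate block called *Fen1* with *gdf6Y*, and DESeq2 called *Rfc2*. *Pcna*, the sliding clamp that holds polymerases on DNA, had normalized counts of 4334 to 4915 (median 4598) with EV, 4629.5, 5032, 4690.2, 4755 and 4945 with *gdf6Y* and 4625, 5163, 5058, 4867 and 5171 with del9, and rose with del9 by 0.10 ± 0.027 (adjusted p = 0.00388). The lowest del9 sample lay within the EV range. *Rfc2*, a subunit of the clamp loader, was the steadiest of the group with EV, at 1801 to 1858 (median 1830.0), against 1961, 1845, 1969, 1948 and 1930.1 with *gdf6Y* and 1868, 2084, 2033, 2013 and 2058 with del9, and its log2 fold change with del9 was 0.14 ± 0.032 (adjusted p = 0.000321). All del9 samples lay above all EV samples. *Rfc5*, a further loader subunit, stood at 1874 to 1968 (median 1914) with EV, 1905, 2036, 2042, 1986 and 1996 with *gdf6Y* and 1962, 2114, 2141, 2026 and 2136 with del9 and rose with del9 by 0.12 ± 0.031. *Rfc3* stood at 1059.7 to 1211 (median 1096) with EV, 1144, 1264, 1220.2, 1157 and 1176 with *gdf6Y* and 1141, 1234, 1241, 1125 and 1302 with del9, with a rise of 0.12 ± 0.036 with del9. In both, the EV range overlapped with that of del9. The remaining loader subunits *Rfc1* (0.039) and *Rfc4* (0.090) were not called.

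*Fen1*, the nuclease that trims Okazaki fragments, had normalized counts of 1718 to 1919 (median 1858) with EV, 1868, 2012, 1948, 1978 and 1959 with *gdf6Y* and 2012, 2029, 2020.2, 1906 and 2105 with del9 and rose with del9 by 0.14 ± 0.032 (adjusted p = 0.000485). *Lig1*, the ligase that joins the trimmed fragments, was not called (0.041 ± 0.028 with del9). *Rpa1* and *Rpa2* encode the large and middle subunits of the single-strand binding protein RPA. *Rpa1* stood at 6113 to 6637 (median 6192) with EV, 6304, 6764, 6617, 6518 and 6572 with *gdf6Y* and 6347, 6734, 6878, 6450.3 and 6793 with del9. *Rpa2* stood at 1077 to 1209.6 (median 1135) with EV, 1104, 1236, 1188, 1152 and 1218 with *gdf6Y* and 1192, 1229, 1211, 1197 and 1339 with del9. They rose with del9 by 0.086 ± 0.026 and 0.12 ± 0.036, with the EV range reaching into that of del9 for both. An exon of *Rpa1* overlaps a predicted gene, *Gm54808*, on the same strand.

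Chromatin assembly and histone supply were represented by 4 genes, of which 3 were called higher with del9 and 0 with *gdf6Y*. Their values with *gdf6Y* against EV ran from -0.0005 to 0.092, and 0 of the 4 were called between *gdf6Y* and del9. *Chaf1a* and *Chaf1b* encode the large and middle subunits of CAF-1, which places histones behind the fork. *Chaf1b* had normalized counts of 1036 to 1214 (median 1129) with EV, 1083, 1268, 1237, 1156 and 1158 with *gdf6Y* and 1214, 1249, 1376, 1174 and 1284 with del9, with del9 replicate 3 the highest of all 16 samples, and rose with del9 by 0.16 ± 0.036 (adjusted p = 0.000373). *Chaf1a* was far steadier, with a coefficient of variation of 1.16% in EV. Its counts were 4047 to 4176 (median 4070.0) with EV, 4175, 4176, 4112, 4059 and 4200.4 with *gdf6Y* and 4292, 4336, 4470.0, 4207 and 4248 with del9, a rise of 0.081 ± 0.028 with del9 (adjusted p = 0.0387). *Slbp*, which binds the stem-loop of histone mRNAs, had counts of 1996 to 2195 (median 2124) with EV, 2151, 2338, 2221, 2199 and 2353 with *gdf6Y* and 2294, 2374, 2262, 2256 and 2445 with del9. All del9 samples lay above all EV samples, and *Slbp* rose by 0.14 ± 0.031 (adjusted p = 0.000175). With *gdf6Y* its value was 0.092 ± 0.032, which did not pass the test. *Uhrf1*, which carries DNA methylation over to the new strand, was not called (0.048 ± 0.028 with del9).

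**Figure D4:**
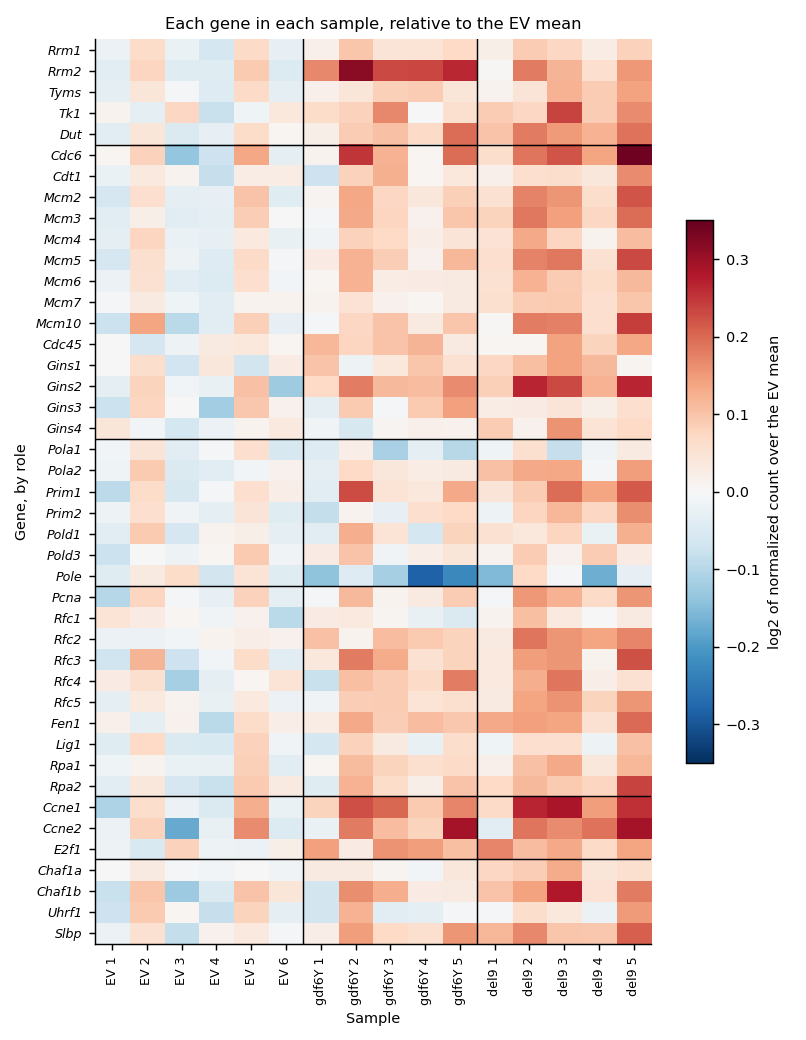
Each of the 43 genes (rows, by role) in each of the 16 samples (columns), as the log2 of its normalized count over the EV mean, on a colour scale from blue (lower) to red (higher). Most rows are redder in the del9 columns than in the *gdf6Y* columns, *Rrm2* is reddest with *gdf6Y*, and *Pole* is blue there.

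The levels of the genes, as normalized counts per kilobase of the canonical transcript, spanned 22.3-fold with EV around a median of 730.7. *Rrm2* was at 3189 ± 147 (SD, n = 6), *Pcna* at 3062 ± 148 and *Mcm6* at 3010 ± 98.1, and these neighbours did not differ beyond their spread. *Tk1* (2712 ± 99.7) and *Mcm7* (2623 ± 43.3) followed. The lowest were *Cdc6* (216 ± 15.0), *Gins3* (164 ± 9.44) and *Ccne2* (143 ± 11.6). With *gdf6Y* the level of *Rrm2* was 3776 per kilobase and with del9 3428.

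Gene length moved with the differences against EV. Among the genes of similar count, split into 4 parts of 1980 genes by exonic length, the median log2 fold change of *gdf6Y* against EV was 0.045 in the shortest part and -0.043 in the longest, and that of del9 against EV was 0.059 and -0.030. The 15 of the 43 genes in the shortest part had medians of 0.091 and 0.11, and the 3 in the longest, with 10082 exonic bases or more, -0.051 and 0.0001. *Rrm1*, *Pola1* and *Pole* are these 3. Between *gdf6Y* and del9 the medians of the shortest and longest parts were -0.0073 and -0.014. With a correction for exonic length, chosen after the data were seen, 21 of the 43 genes were called in del9 against EV, 7 in *gdf6Y* against EV and 1, *Rrm2*, in *gdf6Y* against del9. Of the 8 calls in *gdf6Y* against EV, 4 were kept (*Rrm2*, *Gins2*, *Ccne1* and *Pole*), *Cdc6*, *Dut*, *E2f1* and *Ccne2* were lost, and *Mcm2*, *Mcm5* and *Rrm1* were gained. In del9 against EV, 20 of the 27 calls were kept, *Rrm2*, *Mcm4*, *Mcm7*, *Pcna*, *E2f1*, *Rpa2* and *Rfc3* were lost, and *Rrm1* was gained.

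Other genes of replication and of the cell cycle were counted for comparison. Their counts stand beside the shares among the genes of similar count, 14.7% called higher and 10.5% lower with del9 and 5.14% and 10.1% with *gdf6Y* against EV. Of 32 further replication genes, 7 were called higher and 0 lower with del9, and 4 and 0 with *gdf6Y*, with medians of 0.069 and 0.023. *Orc6*, a subunit of the origin recognition complex, rose by 0.16 ± 0.032 with *gdf6Y* and 0.13 ± 0.031 with del9, and *Pole4*, a small subunit of polymerase epsilon, by 0.12 ± 0.035 and 0.16 ± 0.034. *Pold2* and *Orc2* rose with del9, by 0.14 ± 0.029 and 0.12 ± 0.030, as did *Tipin*, a fork protection factor, by 0.12 ± 0.032. Of 13 further genes of dNTP and thymidylate synthesis, 0 were called lower with del9 and 5 higher, among the latter *Nme1* at 0.17 ± 0.029, *Shmt1* at 0.13 ± 0.029, *Dtymk* at 0.13 ± 0.033 and *Mthfd1* at 0.085 ± 0.027. With *gdf6Y* the one called was *Nme1* (0.099 ± 0.030). Of 18 genes of de novo purine and pyrimidine synthesis, 6 were called higher with del9, among them *Gart* (0.15 ± 0.027), *Umps* (0.15 ± 0.029), *Adsl* (0.13 ± 0.027) and *Impdh1* (0.11 ± 0.030), and 0 lower. *Cad*, which starts pyrimidine synthesis, differed from the rest: it fell with *gdf6Y* against EV (log2 fold change -0.11 ± 0.026) and against del9 (-0.12 ± 0.030, adjusted p = 0.0163) and stood at 0.016 ± 0.025 with del9 against EV.

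Of the G1/S control genes, 7 of 25 were called higher and 3 lower with del9, and 1 of 24 higher and 2 lower with *gdf6Y*. *Cdkn1a*, the CDK inhibitor p21, was called higher in both, by 0.25 ± 0.055 with *gdf6Y* and 0.27 ± 0.049 with del9. Its samples overlapped widely, at 323.2 to 595.2 normalized counts with EV, 373.8 to 630 with *gdf6Y* and 374.6 to 614.4 with del9. The means ± SD were 429.4 ± 106.7, 508.8 ± 115.5 and 516.8 ± 109.7. Since the test largely shared spread among genes of similar count, the SEs of *Cdkn1a* do not measure this spread of its own. *Ccnd1* (cyclin D1), *E2f4* and *Myc* rose with del9 by 0.15 ± 0.025, 0.14 ± 0.027 and 0.13 ± 0.028. *Cdkn1b*, the CDK inhibitor p27, was higher with *gdf6Y* than with del9 (0.13 ± 0.035, adjusted p = 0.0373), a gene named after its values were seen. Against EV, *Cdkn1b* fell with del9 (-0.14 ± 0.031, adjusted p = 0.000352) and was not called with *gdf6Y* (-0.016 ± 0.032). *Cdk6*, a partner of cyclin D, was lower with *gdf6Y* than with del9 (-0.13 ± 0.033, adjusted p = 0.0107) and than with EV (-0.15 ± 0.030, adjusted p = 2.83e-05). With del9 against EV *Cdk6* stood at -0.015 ± 0.029. Of 20 G2/M genes, 3 were called higher and 4 lower with del9, and 1 and 4 with *gdf6Y*. Those that fell in both were *Mki67*, the proliferation marker Ki-67 (log2 fold change -0.18 ± 0.026 with *gdf6Y* and -0.11 ± 0.025 with del9), the centromere proteins *Cenpf* (-0.18 ± 0.029 and -0.10 ± 0.027) and *Cenpe* (-0.12 ± 0.027 and -0.12 ± 0.026), and the topoisomerase *Top2a* (-0.097 ± 0.024 and -0.090 ± 0.024). *Mki67* ran from 13280 to 14970 with EV, 11310 to 14710 with *gdf6Y* and 12090 to 15000 with del9. *Cenpf* ran from 5520 to 5908, 4733 to 6103 and 4925 to 5982, so both genes overlapped with EV. In contrast, all *gdf6Y* samples of *Top2a* and all del9 samples of *Cenpe* lay below the EV range. What part gene length had in these falls was not tested. *Birc5*, the survivin of the chromosomal passenger complex, rose by 0.12 ± 0.030 with *gdf6Y* and 0.13 ± 0.029 with del9. Of 14 p53 target genes, 3 were called higher and 1 lower with del9, and 1 and 1 with *gdf6Y*, *Gadd45a* being the one that fell (-0.18 ± 0.036 with *gdf6Y*). *Cdkn1a* is counted in this list too. Among the genes of similar count 14.7% were called higher and 10.5% lower with del9, and 5.14% and 10.1% with *gdf6Y*. The 3 of 20 G2/M genes called higher with del9 and the p53 target calls with *gdf6Y* were near these shares. So were the G1/S calls with *gdf6Y* and the 3 G1/S genes called lower with del9.

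Genes induced by interferon moved between EV and both other groups. Of 16 such genes, 13 were called lower with del9 and 11 with *gdf6Y*, 0 were called higher in either, and 0 differed between *gdf6Y* and del9, where the median log2 fold change was 0.021. Among the genes of similar count, 10.5% were called lower with del9 and 10.1% with *gdf6Y* against EV. The summed normalized counts of the 16 genes were 31310 to 35490 in the EV samples, 28330 to 31310 in the *gdf6Y* samples and 28350 to 31220 in the del9 samples. *Ifit3*, *Rsad2*, *Gbp2*, *Oasl2* and *Ifit1* had the smallest adjusted p-values, with log2 fold changes with del9 of -0.42, -0.35, -0.47, -0.24 and -0.25. What part these genes had in the differences of the replication genes against EV was not tested.

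**Figure D5:**
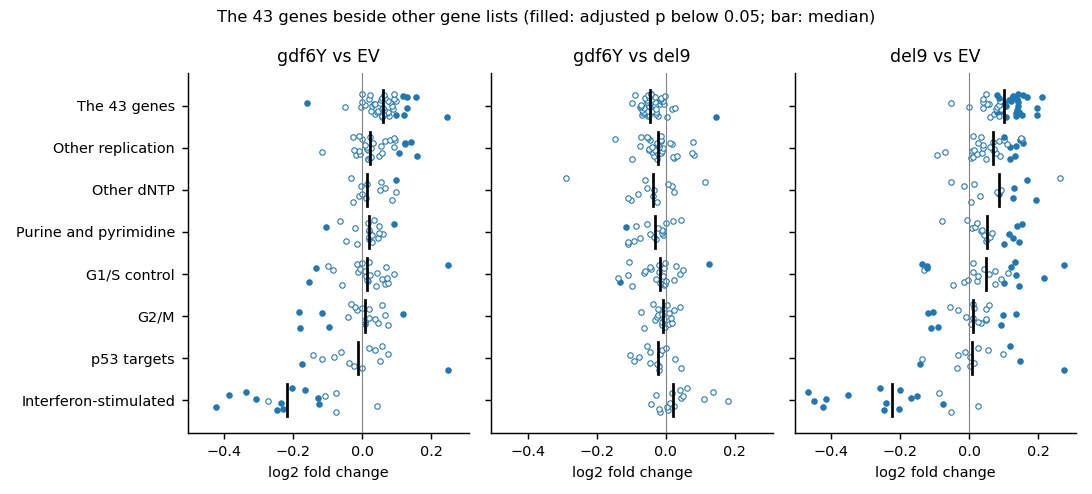
Log2 fold change of every gene of the 43 and of 7 other gene lists in the 3 comparisons (genes with a mean of at least 10 normalized counts), with the list’s median as the bar and filled points for an adjusted p-value below 0.05. The 43 genes have the highest median in both comparisons with EV (0.060 and 0.10), and the interferon-stimulated genes the lowest (-0.22 in both).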

How the data were processed

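The authors deposited one table of read counts per gene, whole numbers without normalization, for 16 samples of TM4 cells. Per the methods and labels, poly(A) libraries with unique molecular identifiers (UMIs) were made from 300 ng of total RNA with a strand-specific kit and sequenced single-end. The aligner was STAR 2.7.10a, with GRCm39 as the genome, PCR duplicates were removed by UMI with UMI-tools, and reads were counted by strand with FeatureCounts 2.0.3. Reads that mapped to several places or overlapped several genes were discarded, which lowers the counts of genes with close copies. Replicate 6 of *gdf6Y* and of del9 was left out by the authors for quality. All 16 count columns of the table were used (0 unmapped).

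Rows were matched to symbols, positions and exonic lengths with a GENCODE annotation of GRCm39, which held 56017 of the 56748 identifiers and is not the release used for counting. A gene entered a comparison if any of its samples held 1 count or more. Libraries were scaled with TMM and tested with edgeR 4.0.16 (quasi-likelihood test, R 4.3.3), 2 groups per model and no covariates, with adjusted p-values below 0.05 called. Standard errors were taken from the fold change and the test statistic. They followed the count of a gene more than its own spread. With *gdf6Y* against EV they were 0.0284 for *Chaf1a* and 0.0287 for *Uhrf1*, whose coefficients of variation with EV were 1.16% and 5.14%. With DESeq2 these SEs were 0.0222 and 0.04. The score used a prior count of 2. The 43 genes, the other lists, the tests and the alternatives were chosen with earlier results of these data known. All 43 genes are accounted for; values of every sample are given for *Rrm2*, for each gene called in a comparison and for genes called under a replicate block in 2 comparisons or more, and from each other list at most the 5 called genes with the smallest adjusted p-value are named. Depth was 21486850 to 26444903 counted reads per sample, and the median SE of the 43 log2 fold changes was between 0.031 and 0.035. Samples of one group differed by more than sampling noise, with a chi-square of 1.41 to 11.5 per degree of freedom over 35 pairs, so none was counted as a repeat. The test was run on simulated counts with known changes, and its results there are not given here. Alternatives were DESeq2 1.42.0 and its size factors, total counts, filterByExpr, no filter, edgeR’s newer dispersion estimate, a single model of all 3 groups, a replicate block with and without a gene length correction, prior counts of 0.5 and 5, and each replicate left out in turn. One gene of the comparison lists is not reported here by name.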

Additional observations from a re-analysis of the deposited data

Results flagged for a closer look

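Over 132 groups of values (the 43 genes and their score in each of 3 groups), 4, all of single genes, had a sample that stood far from the others by Dixon’s test, where chance alone gives about 6.6. *Chaf1a* was at 4176 normalized counts in EV replicate 2, against 4047 to 4081 in the other EV samples (gap over range 0.741). *Mcm6* was at 9731 in *gdf6Y* replicate 2, against 8975 to 9130 (0.795). In del9 replicate 5, *Cdt1* was at 3497 against 3153 to 3252 in the other del9 samples (0.711), and *Rpa2* was at 1339 against 1192 to 1229 (0.748).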

How the results depend on the processing

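No called fold change of the single genes followed and no score difference changed sign under any alternative. The score differences kept their direction and moved by less than 1 SD in all of them, and the number of genes called in del9 against EV stayed between 20 and 29 (27 as reported). In *gdf6Y* against EV, 8 of the 43 genes were called, 5 with edgeR’s newer dispersion estimate and 5 without a filter on low counts, each without *Dut*, *Cdc6* and *Ccne2*. DESeq2 lost *Cdc6* and *Ccne2* and gained *Rfc2*, filterByExpr lost *Cdc6*, *Dut* and *Ccne2* and gained *Cdc45* and *Rfc2*, and the gene length correction kept 4 of the 8. Leaving out 1 replicate gave 4 to 16. In *gdf6Y* against del9, 1 gene was called, 0 with filterByExpr, where *Rrm2* had an adjusted p of 0.0906, and 1 to 2 when 1 replicate was left out. The cause of these changes was not tested. Over all genes tested, that comparison had 261 calls, 82 with DESeq2, 163 with the newer dispersion estimate and 45 with filterByExpr. For single genes the fold change kept its side of the threshold in 1593 cases, was no longer called in 92, became called in 41, and changed sign without being called in 10. Replicate numbers are shared between the groups, but deviations of samples with the same number correlated above 0.1 in 4 of 5 pairs for *gdf6Y* and EV, 4 of 5 for *gdf6Y* and del9 and 2 of 5 for del9 and EV (12584 genes), and 6, 7 and 2 of 10 samples correlated best with their own number, so the samples were not taken as paired. For *gdf6Y* and del9 the lowest pair correlation, 0.0994, was just under this limit. With the replicate block, 14, 2 and 29 of the 43 genes were called in *gdf6Y* against EV, *gdf6Y* against del9 and del9 against EV, and 15, 2 and 24 with the block and the gene length correction together. The genes added by the block in *gdf6Y* against EV were *Mcm2* (adjusted p = 0.0363), *Mcm3* (0.0346), *Mcm5* (0.00894), *Tk1*, *Fen1* and *Slbp*, and the one added against del9 was *Pole* (0.011). Over all genes the block gave 2061 calls in *gdf6Y* against EV, from 1338. In *gdf6Y* against EV the SE of the log2 fold change of *Gins3*, the least counted gene, was 0.052, of which counting alone gives 0.043, and that of *Rrm2* was 0.026, where counting gives 0.0092, so depth limits the former more than the latter.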
